A study of Mus musculus with 12 samples.

Results

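The 10 genes described here encode the glucose transporter and the glycolytic enzymes Slc2a1, Hk2, Hk3, Pfkl, Aldoa, Gapdh, Pgk1, Pgam1, Pkm and Ldha. They were picked by symbol and are 10 of the 47643 gene identifiers in each deposited table. Their mRNA was measured by 3′ sequencing in macrophages (Mϕ) sorted from the peritoneum of female C57BL/6 mice of 8 to 12 weeks, 6 days after an injection of zymosan, a yeast cell wall preparation that causes a self-limiting peritonitis. All mice received zymosan at 5 mg/kg, so no group is free of inflammation. From day 1 on they received either compound III (CIII, 25 mg/kg daily), an inhibitor of the prostaglandin E2 synthase mPGES-1, or vehicle (VEH). The sorted subpopulations sequenced were F4/80lo Mϕ (low F4/80 and MerTK, high MHCII) and F4/80hi Mϕ (high F4/80 and MerTK). Each of the 4 groups had 3 libraries, numbered 1 to 3, and 12 libraries were analysed in all. The sources do not say whether each library came from its own mouse, so the p-values measure the spread between these libraries.

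Glycolysis splits glucose into pyruvate. Glucose enters through transporters such as Slc2a1 (GLUT1), is trapped by hexokinases, committed by phosphofructokinase, cleaved by aldolase, and then oxidised and rearranged by the enzymes of the lower pathway, which yield ATP. Lactate dehydrogenase turns pyruvate into lactate and restores NAD+. Macrophages activated by microbial products are known to raise glycolysis, partly through the transcription factor HIF-1, while resting resident Mϕ rely more on mitochondrial respiration.

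The promoters of the genes were read because HIF-1 is known to bind the core letters ACGTG or GCGTG. In windows of 250 bases before to 50 after each RefSeq start site (GRCm38.p6), all 10 genes matched, with 14 windows. ACGTG, read on both strands (CACGT on the other), was found in 9 of 10 genes and in 10 of 14 windows, against 21.8% of 27025 genes and 19.6% of 32851 windows with such a table entry. GCGTG was found in 5 of 10 genes against 35.2% of all. One or the other was found in all 10, against 46.7% of all. The 3 windows with the most ACGTG letters upstream of the start are shown over their 250 upstream bases, with ACGTG or CACGT in capitals. Ldha (chr7:46845554-46845803, plus strand) held 5 matches, 4 of which form the palindrome CACGTG, the E-box that other factors are known to bind. Pgk1 (chrX:106186850-106187099, plus strand) and Hk2 (chr6:82774455-82774704, minus strand) held 2 each. A match describes letters and is no measurement of binding.
Ldha: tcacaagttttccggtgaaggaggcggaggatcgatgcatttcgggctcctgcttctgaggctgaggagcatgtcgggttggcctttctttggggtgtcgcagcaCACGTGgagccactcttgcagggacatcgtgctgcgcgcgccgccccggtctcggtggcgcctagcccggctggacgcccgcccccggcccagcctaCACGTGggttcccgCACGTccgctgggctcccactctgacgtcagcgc
Pgk1: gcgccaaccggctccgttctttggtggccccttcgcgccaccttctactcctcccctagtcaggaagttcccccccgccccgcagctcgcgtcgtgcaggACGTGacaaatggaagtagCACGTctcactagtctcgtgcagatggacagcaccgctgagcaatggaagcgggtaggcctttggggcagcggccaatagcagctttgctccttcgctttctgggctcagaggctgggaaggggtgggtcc
Hk2: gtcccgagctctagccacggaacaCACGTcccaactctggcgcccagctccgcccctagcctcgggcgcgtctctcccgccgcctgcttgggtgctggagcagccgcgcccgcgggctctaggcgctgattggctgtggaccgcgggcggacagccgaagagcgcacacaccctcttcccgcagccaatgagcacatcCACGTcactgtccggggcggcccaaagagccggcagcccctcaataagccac

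The libraries held 426624 to 3389448 reads on genes, and the 10 genes together took 0.0845% to 0.176% of them. A count of 3 reads corresponded to 0.885 to 7.03 RPM (reads scaled to a fixed library total) before TMM scaling. The levels in RPM given below were also divided by a TMM factor per library, 0.847 to 1.11. This floor therefore holds for them only roughly. Pgk1 (58 reads over all 12 libraries) and Pgam1 (123 reads) were measured near the floor. The sorted identity held in part. Adgre1, which encodes F4/80, was lower in F4/80lo than in F4/80hi Mϕ by a log2 difference of -1.69 with no overlap between the groups, and the MHCII gene H2-Ab1 was higher by 2.37 (limma adjusted p = 0.101 and 0.144, and 0.000295 and 0.00177 with the library number as a block). Mertk, also used in the sort, differed by only -0.19 (adjusted p = 0.838). The libraries numbered 3 stood apart in every group: the ribosomal RNA-like gene Gm42418 took 2.65% to 14.3% of their reads and at most 0.579% elsewhere. The VEH F4/80hi library number 3 also went against its label in part, though its Adgre1 lay above every F4/80lo library. Its summed level of 10 resident peritoneal Mϕ markers was 2504.7 RPM, against 12145 to 30153 in the other F4/80hi libraries. Over 8448 genes it resembled VEH F4/80lo number 3 (Spearman 0.914) more than VEH F4/80hi numbers 1 and 2 (0.693 and 0.663). With CIII number 3 the values were 0.865 for F4/80hi and 0.857 for F4/80lo, so libraries of its own number were the closest.

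The question of the treatment comparison was whether CIII altered the mRNA of these genes within each subpopulation. No gene of the 10 passed limma's test at an adjusted p under 0.05 in either subpopulation. The same held for every gene tested: in F4/80lo Mϕ 0 of 10718 genes passed (0%), with 289 at an unadjusted p under 0.05, 0 calls by edgeR and 2 by DESeq2, and in F4/80hi Mϕ 0 of 10499 (0%), with 413 at an unadjusted p under 0.05 and 0 calls by edgeR and DESeq2. In F4/80hi Mϕ DESeq2 gave no adjusted p for Slc2a1, Hk3, Pfkl, Gapdh, Pgk1 and Pgam1, so it could not call them. In F4/80lo Mϕ 4 of the 10 genes had a positive and 6 a negative log2 difference, with a median of -0.09 beside -0.05 over all genes. That split rests on single libraries, since it was 1 and 9 (median -0.38) without VEH number 1 and 7 and 3 (median 0.18) without VEH number 3, and 7 and 3 (median 0.35) with library weights. In F4/80hi Mϕ the split was again 4 and 6, with a median of -0.08 beside 0.05, and the median ran from -0.19 to 0.078 when 1 library was left out. Since a sorted sample is a mixture, fewer cells of one kind and less RNA per cell cannot be told apart in any of these values.

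**Figure D1:**
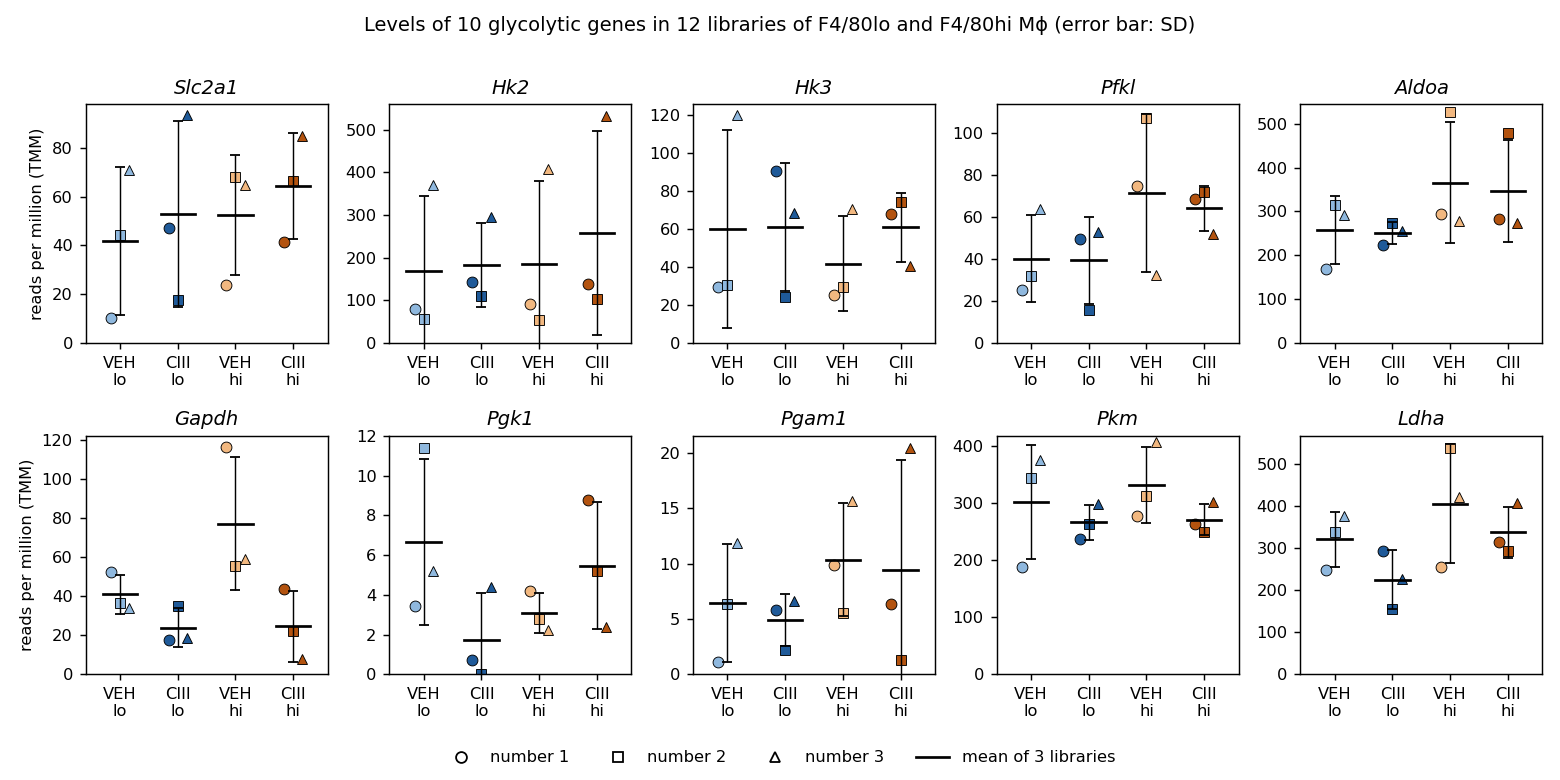
Levels of the 10 genes in RPM, scaled over all 12 libraries (y axis), in VEH and CIII libraries of F4/80lo and F4/80hi Mϕ (x axis). Symbols are the libraries numbered 1 to 3, lines the means and error bars the SD, cut at 0. The libraries numbered 3 are the highest of every group for Hk2, Pgam1 and Pkm, and Gapdh is the gene whose VEH and CIII libraries do not overlap in F4/80hi Mϕ.

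Slc2a1, a transporter through which glucose enters (chromosome 4, 119108711 to 119137983, plus strand, GRCm38), overlapped between treatments throughout. The normalised counts of libraries 1, 2 and 3 in F4/80lo Mϕ were 10.5, 44.9 and 67.9 with VEH and 46.1, 18.3 and 94.0 with CIII. Those of F4/80hi Mϕ were 22.6, 64.0 and 60.8 with VEH and 37.5, 61.3 and 77.1 with CIII. The log2 differences were 0.42 (SE 0.72) and 0.33 (SE 0.49). Libraries of one group spread widely for this gene, from 10.5 to 67.9 with VEH in F4/80lo Mϕ, which left an interval of -1.17 to 2.004 in F4/80lo Mϕ (95% confidence).

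Hk2, the inducible hexokinase (chromosome 6, 82725025 to 82774454, minus strand), gave 80.3, 57.8 and 354 normalised counts with VEH and 139, 114 and 295 with CIII in F4/80lo Mϕ. The F4/80hi libraries gave 86.4, 49.6 and 382 with VEH and 126, 93.7 and 482 with CIII. The library number separated the values more than the treatment did. The mean was 173 ± 182 with VEH and 234 ± 216 with CIII in F4/80hi Mϕ (SD, n = 3), and the CIII library was higher in all 3 same-numbered pairs there, as for 33.8% of all genes that moved one way in every pair. The log2 difference in F4/80lo Mϕ was 0.50 (SE 0.62), or 0.88 (SE 0.417, limma adjusted p = 0.840) without number 3, and that in F4/80hi Mϕ was 0.59 (SE 0.80).

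Hk3, the hexokinase prominent in myeloid cells (chromosome 13, 55005985 to 55021385, minus strand), gave 30.3, 30.8 and 115 with VEH and 88.7, 25.1 and 68.5 with CIII in F4/80lo Mϕ. The F4/80hi libraries gave 23.9, 27.4 and 66.0 with VEH and 61.4, 68.5 and 36.7 with CIII. Numbers 1 and 2 were higher with CIII in F4/80hi Mϕ and number 3 was lower. The log2 difference was 0.17 (SE 0.61) for F4/80lo Mϕ, and 0.62 (SE 0.578) without number 3. For F4/80hi Mϕ it was 0.59 (SE 0.48), and 1.31 (SE 0.413) without number 3, which did not pass either (limma adjusted p = 0.626).

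Pfkl, the liver-type phosphofructokinase of the committed step (chromosome 10, 77986947 to 78010083, minus strand), differed by -0.09 (SE 0.55) within F4/80lo Mϕ and by -0.05 (SE 0.47) within F4/80hi Mϕ, the latter -0.39 (SE 0.379) without number 3. Its normalised counts were 25.6, 32.1 and 61.0 with VEH and 48.2, 15.99 and 53.1 with CIII in F4/80lo Mϕ. The F4/80hi libraries gave 70.5, 101 and 30.4 against 62.1, 66.1 and 47.0. Aldoa, the aldolase that splits the 6-carbon sugar (chromosome 7, 126795234 to 126800751, minus strand), was among the steadier genes. It gave 172, 318 and 278 with VEH and 218, 283 and 256 with CIII in F4/80lo Mϕ, a log2 difference of 0.02 (SE 0.35, interval -0.75 to 0.79). Its F4/80hi libraries gave 278, 494 and 259.9 against 256, 442 and 248, a difference of -0.11 (SE 0.39) with each CIII library slightly below its same-numbered VEH library.

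Gapdh, which oxidises glyceraldehyde 3-phosphate and is often used as a reference gene (chromosome 6, 125161715 to 125166467, minus strand), had the largest difference among the 10 genes in F4/80hi Mϕ. The VEH libraries gave 110.4, 52.3 and 55.6 normalised counts and the CIII libraries 39.7, 20.4 and 7.11. All VEH libraries lay above all CIII libraries, as for 10.5% of all genes whose groups did not overlap in either direction, and Gapdh was the only one of the 10 genes of which this held in F4/80hi Mϕ. The means were 72.7 ± 32.6 and 22.4 ± 16.4 (SD, n = 3), a log2 difference of -1.86 (SE 0.61, interval -3.23 to -0.48), or 3.62-fold lower on the log2(value + 1) scale. The same-numbered pairs differed by -1.45, -1.31 and -2.80. It did not pass the test across all genes (limma adjusted p = 0.992, and 0.162 with the library number as a block). Over the alternatives the difference ran from -2.40 to -1.23, and without the libraries numbered 3 it was -1.38 (adjusted p = 0.626). The F4/80lo libraries gave 53.5, 37.2 and 32.6 with VEH and 17.0, 36.6 and 18.8 with CIII. Here the groups overlapped, each CIII library lay below its pair, and the difference was -0.80 (SE 0.48, interval -1.84 to 0.25).

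Gapdh reads can be split by mapping, since the mouse genome holds many processed copies of the gene. The 3′ ends of its transcripts matched 133 other annotated genes, 121 of them pseudogenes, over at least 70 bases at 95% identity or more. Of these, 127 were in the tables and 117 held reads, 1329 in all against 491 on Gapdh itself. Gapdh took 12.8% to 54.2% of the reads on all these loci, depending on the library. Summed with them, it gave 382, 217 and 143 normalised counts with VEH and 165, 132 and 13.1 with CIII in F4/80hi Mϕ, so the groups overlapped, and the log2 difference was -1.75 (SE 0.85, interval -3.67 to 0.16, limma adjusted p = 0.993). The sums in F4/80lo Mϕ were 164, 291 and 66.9 against 97.2, 171 and 96.2, a difference of -0.33 (SE 0.51). The other members had 8 such loci at most, with 16 reads or fewer. Of 12 neutrophil markers, 4 were high enough to be tested in F4/80hi Mϕ, 2 positive and 2 negative, and Camp and Ngp were at 0 in all 12 libraries. Their summed level was 53.5, 57.1 and 164 RPM with VEH and 70.3, 43.1 and 44.0 with CIII. One of them, S100a8, was lower in all CIII libraries, at 39.9, 24.8 and 81.8 normalised counts against 12.3, 6.01 and 13.7. The share of reads on ribosomal protein genes separated these groups too, at 3.92%, 2.25% and 2.06% with VEH and 1.66%, 1.30% and 0.949% with CIII. By the study's gating F4/80hi Mϕ were taken as cells high in F4/80 and MerTK, and neutrophils were set apart among the remaining cells by Ly6G. The part of neutrophil genes and of this share in the result was not tested.

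**Figure D2:**
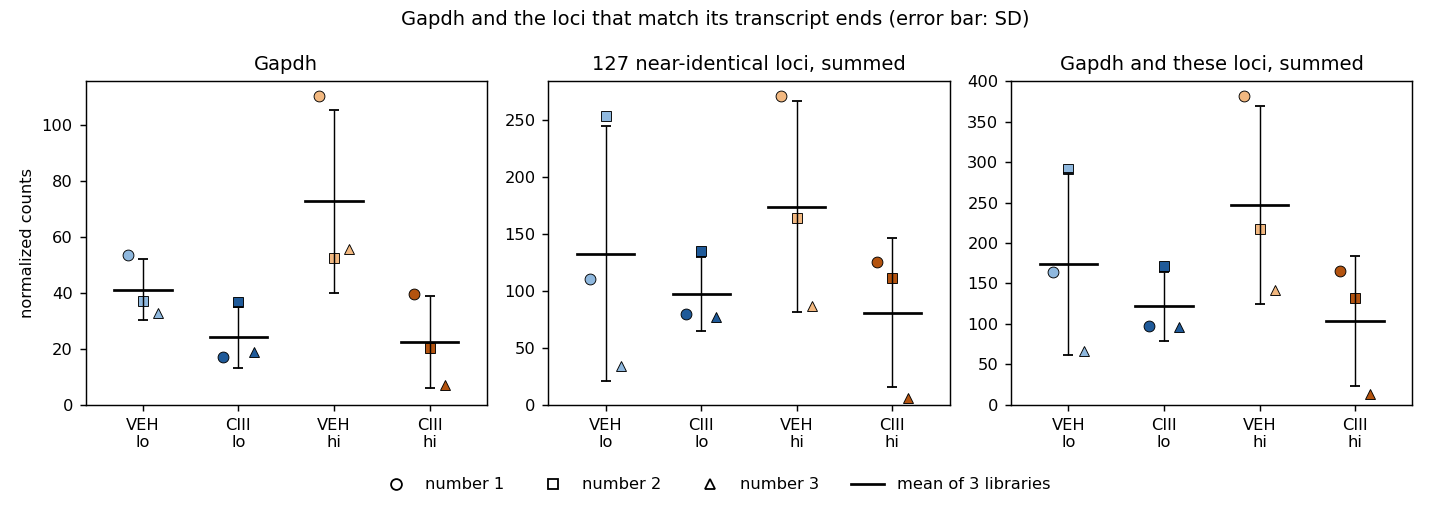
Normalised counts (y axis) of Gapdh, of the 127 loci that match its transcript ends, and of both summed, in VEH and CIII libraries of F4/80lo and F4/80hi Mϕ (x axis). Symbols are the libraries, lines the means and error bars the SD, cut at 0. The VEH and CIII libraries of F4/80hi Mϕ do not overlap for Gapdh alone and overlap for the sum, where VEH number 3 at 143 lies below CIII number 1 at 165.

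Pgk1, which makes ATP early in the lower pathway (chromosome X, 106187100 to 106203699, plus strand), was counted in very few reads. F4/80lo Mϕ gave 3, 9 and 15 reads with VEH and 1, 0 and 4 with CIII, or 3.49, 11.6 and 5.00 against 0.709, 0 and 4.42 normalised counts. F4/80hi Mϕ gave 3, 2 and 2 reads with VEH and 11, 4 and 4 with CIII, or 3.99, 2.61 and 2.10 against 7.94, 4.81 and 2.19 normalised counts. Each CIII library lay below its pair in F4/80lo Mϕ, as 28.8% of genes moved one way in all pairs there, and above it in F4/80hi Mϕ. The log2 differences were -1.73 (SE 1.04, interval -4.00 to 0.54) and 0.52 (SE 0.78), and without number 3 they were -2.52 (SE 1.69) and 0.76 (SE 0.925). Over the alternatives they ran from -2.52 to -0.79 in F4/80lo Mϕ and from 0.17 to 0.92 in F4/80hi Mϕ. None of these passed the test.

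Pgam1, the phosphoglycerate mutase (chromosome 19, 41911923 to 41918660, plus strand), was nearly as low, with 1.16, 6.42 and 11.3 normalised counts with VEH and 5.67, 2.28 and 6.63 with CIII in F4/80lo Mϕ. Its F4/80hi libraries gave 9.31, 5.23 and 14.7 against 5.78, 1.20 and 18.6. The log2 differences were -0.08 (SE 0.92) and -0.59 (SE 0.86), smaller than their errors. Without number 3 they were 0.22 (SE 1.44) and -1.05 (SE 0.985).

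Pkm, the pyruvate kinase that makes the last ATP (chromosome 9, 59656368 to 59679375, plus strand), was among the steadier genes too. Its splice forms share their 3′ end, so these counts do not tell them apart. F4/80lo Mϕ gave 192, 348 and 358 with VEH and 232, 272 and 299.6 with CIII, a log2 difference of -0.11 (SE 0.36). F4/80hi Mϕ gave 262, 293 and 380.5 against 238, 229.5 and 274. Each CIII library lay below its pair there, with means of 312 ± 61.5 and 247 ± 23.4 (SD, n = 3) and a difference of -0.32 (SE 0.31, interval -1.03 to 0.39).

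Ldha, the lactate dehydrogenase subunit that favours lactate production (chromosome 7, 46841475 to 46855627, plus strand), gave 254, 341 and 359 with VEH and 287, 159.9 and 228 with CIII in F4/80lo Mϕ. The groups overlapped, with means of 318 ± 56.6 and 225 ± 63.4 (SD, n = 3) and a log2 difference of -0.52 (SE 0.35, interval -1.29 to 0.25). Its F4/80hi libraries gave 242, 504 and 394 against 283, 269 and 369, a difference of -0.26 (SE 0.37). None of the 10 genes separated the treatments in F4/80lo Mϕ, against 8.73% of all genes.

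A fit that weighted each library by its spread changed several of these values. In F4/80lo Mϕ Slc2a1 was then 1.35 (SE 0.535), Hk2 0.80 (SE 0.398), Hk3 1.09 (SE 0.409), Gapdh -1.29 (SE 0.367) and Ldha -0.10 (SE 0.274), and Pfkl, Pgam1 and Pkm turned to positive. In F4/80hi Mϕ Hk3 was 0.97 (SE 0.400) and Pfkl -0.19 (SE 0.377). None of the 10 genes passed with these weights, and the lowest adjusted p by limma was 0.252, for Gapdh in F4/80lo Mϕ.

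**Figure D3:**
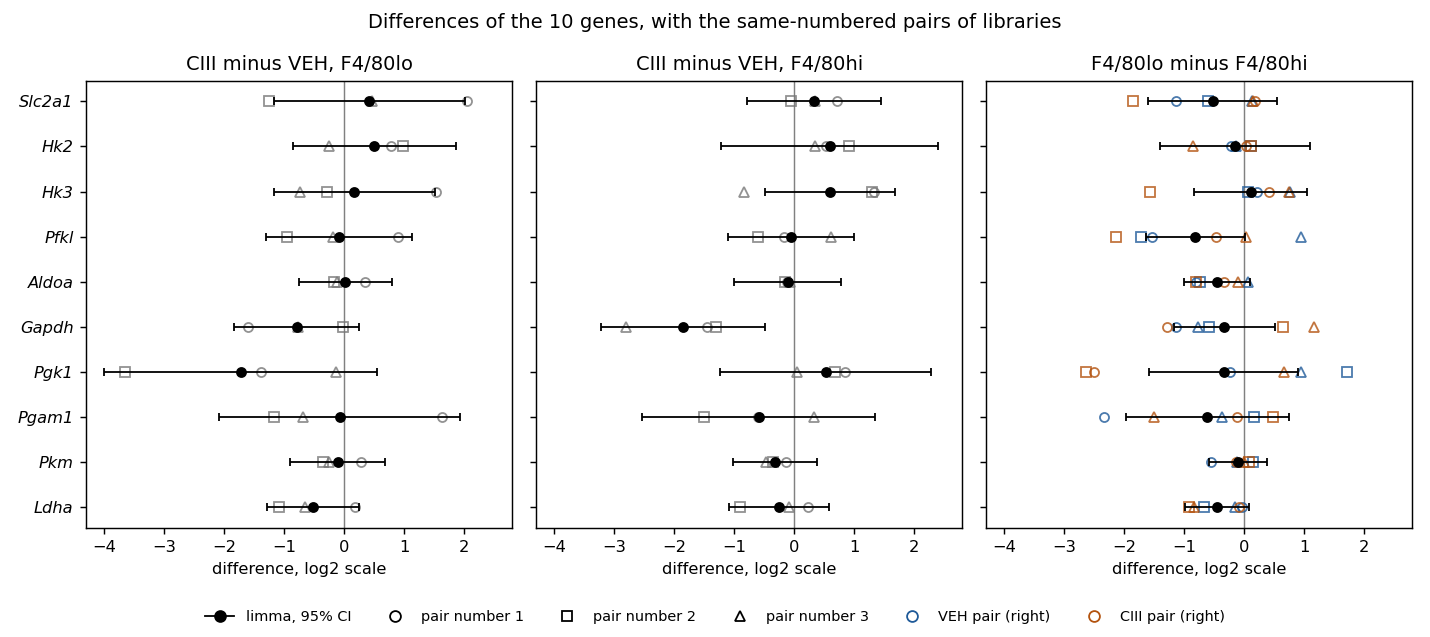
Differences of the 10 genes on the log2 scale (x axis) for CIII minus VEH in each subpopulation and for F4/80lo minus F4/80hi Mϕ. Filled circles and bars are limma's estimates with 95% confidence intervals, and open symbols the same-numbered pairs of libraries. The interval of Gapdh in F4/80hi Mϕ, from -3.23 to -0.48, is the only one drawn that leaves out 0.

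The difference between both responses was tested directly. None of 10097 genes passed (0%, limma, with 173 at an unadjusted p under 0.05 and 0 calls by edgeR). Pgk1 came closest among the members with a difference of -2.25 (SE 1.20, interval -4.82 to 0.32, limma adjusted p = 0.999), or -3.28 (SE 1.66, adjusted p = 0.996) without the libraries numbered 3. Over the alternatives its difference ran from -3.28 to -1.10. For Gapdh it was 1.06 (SE 0.79, adjusted p = 0.999), and 0.57 (SE 0.771) without the libraries numbered 3, so the response of Gapdh was not shown to differ between F4/80lo and F4/80hi Mϕ.

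The other comparison of the design was between the subpopulations. Here the 2 tables, which the authors scaled separately, were brought to 1 scale as RPM with TMM scaling over 12 libraries. Of the 10 genes 9 were lower and 1 (Hk3) higher in F4/80lo Mϕ, with a median log2 difference of -0.40 beside -0.00 over all genes. The median stayed between -0.52 and -0.22 under the alternatives, and on the deposited scaling, which shifted the median of all genes to 0.10, it was -0.30 with 8 genes lower. No member passed limma's test, as for all but 2 of 10726 genes (0.0186%), and none passed with the library number as a block, where 463 genes did (4.32%). None had groups without overlap, as 0.839% of genes did.

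Ldha was the steadiest in direction. Its level in RPM was 154 to 376 in F4/80lo libraries (median 271) and 256 to 538 in F4/80hi libraries (median 360.0). It was lower in F4/80lo in 6 of 6 same-numbered pairs, by -0.04, -0.67 and -0.16 with VEH and by -0.09, -0.92 and -0.84 with CIII. Of all genes 10.8% had 1 direction in all 6 pairs, and Ldha was the only one of the 10 that did. The log2 difference was -0.45 (SE 0.25, interval -0.99 to 0.08, limma adjusted p = 0.615, and 0.143 with the block). Aldoa was close to it, at 169 to 314 (median 265) in the F4/80lo libraries against 274 to 526 (median 289) in the F4/80hi libraries, lower in 5 of 6 pairs, with a difference of -0.45 (SE 0.25, interval -1.001 to 0.09).

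Pfkl had the largest difference, -0.82 (SE 0.39, interval -1.64 to 0.01, limma adjusted p = 0.548). Its levels were 15.4 to 63.7 RPM (median 40.5) in the F4/80lo libraries against 32.5 to 107 (median 70.2) in the F4/80hi libraries. Numbers 1 and 2 were lower in F4/80lo in all 4 pairs, by -1.54 and -1.73 with VEH and -0.47 and -2.15 with CIII, while the pairs numbered 3 differed by 0.95 and 0.03. Without the 4 libraries numbered 3 the difference was -1.46 (SE 0.373) and passed the test (limma adjusted p = 0.0450), as did 330 of 10671 genes under that setting (3.09%), so the call rests on whether those libraries are kept.

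The intervals of the other members included 0. Slc2a1 differed by -0.53 (SE 0.50), or -0.85 (SE 0.501) without the libraries numbered 3, with a median of 45.8 RPM in F4/80lo and 65.8 in F4/80hi libraries. Hk2 and Hk3 differed by -0.16 (SE 0.58) and 0.10 (SE 0.44), and without the libraries numbered 3 both turned, to 0.02 and -0.21. Pkm differed by -0.10 (SE 0.22, interval -0.58 to 0.38), which bounds any difference of this gene more tightly than that of any other member. Gapdh differed by -0.33 (SE 0.39), by -0.58 (SE 0.383) without the libraries numbered 3, and by -0.02 (SE 0.55) when summed with its matching loci. It was -0.82 (SE 0.42) in the VEH libraries alone and 0.16 (SE 0.62) in the CIII libraries alone. Pgk1 and Pgam1 differed by -0.34 (SE 0.58) and -0.62 (SE 0.63), and Pgk1 was -0.92 (SE 0.774) without the libraries numbered 3, 0.81 in the VEH libraries alone and -1.52 in the CIII libraries alone.

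The libraries numbered 3 set much of the spread of these genes. They were the highest of their group in all 4 groups for Hk2, Pgam1 and Pkm, as 14.9% of 10097 genes were. Hk2 in them was 5.12 and 2.33 times the mean of numbers 1 and 2 in VEH and CIII F4/80lo Mϕ, and 5.61 and 4.40 times in F4/80hi Mϕ. Pkm was 1.17 to 1.37 times that mean. Pfkl was 2.11 and 1.65 times the mean in F4/80lo but 0.355 and 0.734 times in F4/80hi Mϕ.

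**Figure D4:**
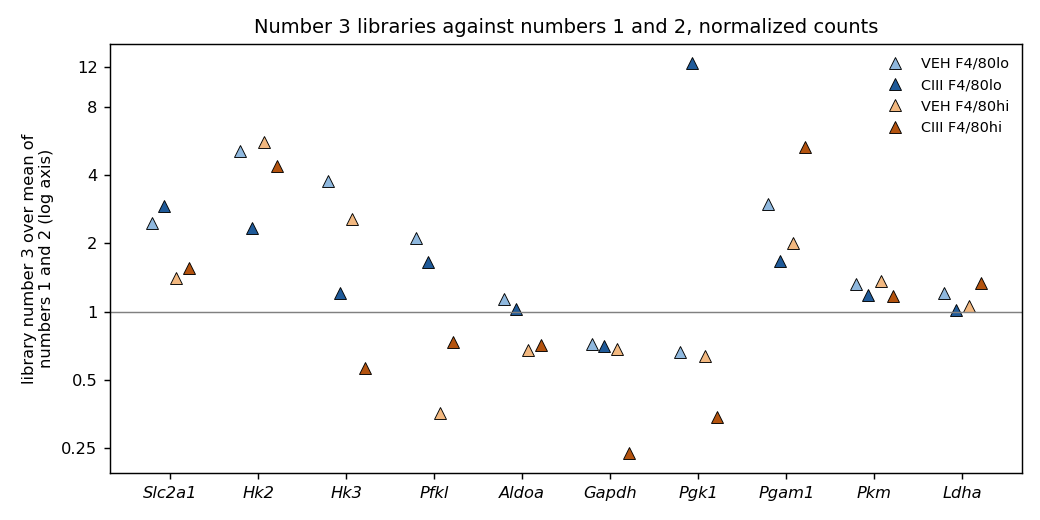
Level of each gene in the library numbered 3 divided by the mean of numbers 1 and 2 of the same group (y axis, log scale), for the 10 genes (x axis) and the 4 groups (colours). Hk2 lies above 1 in all 4 groups, between 2.33 and 5.61, and Pfkl lies above 1 in F4/80lo and below 1 in F4/80hi Mϕ.

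Across the 12 libraries the genes did not move as one. Each gene's deviation from its subpopulation mean, taken over VEH and CIII together, was correlated with the mean standardised deviation of the other 9. This is a description over libraries that share these numbers and depths, and any difference between treatments stays in it. The correlation was highest for Slc2a1 (0.73), Pkm (0.66) and Ldha (0.57) and lowest for Aldoa (0.14) and Gapdh (-0.30). The genes most like the mean of the 10 were Ddx41 (Pearson 0.924), the glycogen synthase Gys1 (0.911), the triose phosphate isomerase Tpi1 (0.905), Cdv3 (0.886) and Sco1 (0.883).

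The rest of the pathway was described from a list of 31 further glycolysis genes, of which 17 were high enough to be tested and 9 had no read in any library. The transporter Slc2a3 was too low to be tested, at 0 to 5.82 normalised counts. With CIII no gene of the list passed in either subpopulation. In F4/80lo Mϕ 8 were positive and 9 negative (median -0.01), and in F4/80hi Mϕ 12 were positive and 5 negative (median 0.24 beside 0.05 over all genes). Pfkfb3, whose product makes the activator of phosphofructokinase, had groups that did not overlap in F4/80hi Mϕ. Its normalised counts were 45.2, 24.8 and 67.1 with VEH and 74.4, 80.5 and 133 with CIII, a log2 difference of 1.12 (SE 0.45, interval 0.11 to 2.12, limma adjusted p = 0.992, and 0.209 with the block). Slc2a6, a transporter of the family of Slc2a1, differed by 0.65 without overlap, which made 2 of 17 genes beside 10.5% of all. In F4/80lo Mϕ the groups of Aldoc (1.41) and Eno3 (1.78), the aldolase and enolase forms of other tissues, did not overlap, both at 25.4 normalised counts or fewer, again 2 of 17 genes beside 8.73% of all. Both shares lay near that of all genes.

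Between the subpopulations 8 of the 17 genes were positive and 9 negative (median -0.01). Pfkfb4, which acts on the same activator as Pfkfb3, was the one gene of the 17 whose groups did not overlap, beside 0.839% of all genes, at 45.6 to 61.6 RPM in the F4/80lo libraries against 4.18 to 42.6 in the F4/80hi libraries. It differed by 1.77 (SE 0.46, limma adjusted p = 0.209), and passed with the library number as a block (adjusted p = 0.00645), as 4.32% of all genes did, and without the libraries numbered 3 (2.39, adjusted p = 0.0041), as 3.09% did. Eno1, the enolase between Pgam1 and Pkm, was higher in F4/80lo Mϕ by 0.74 (SE 0.41, adjusted p = 0.614), and Aldoc by 1.52 (adjusted p = 0.471). For the other named genes of the pathway the differences were 0.76 for Eno3, 0.54 for Slc2a6, -0.01 for Hk1, -0.25 for Gpi1, 0.43 for Pfkp, 0.15 for Pfkfb3, -0.04 for Tpi1 and -0.43 for the lactate exporter Slc16a3, none of them past the test.

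**Figure D5:**
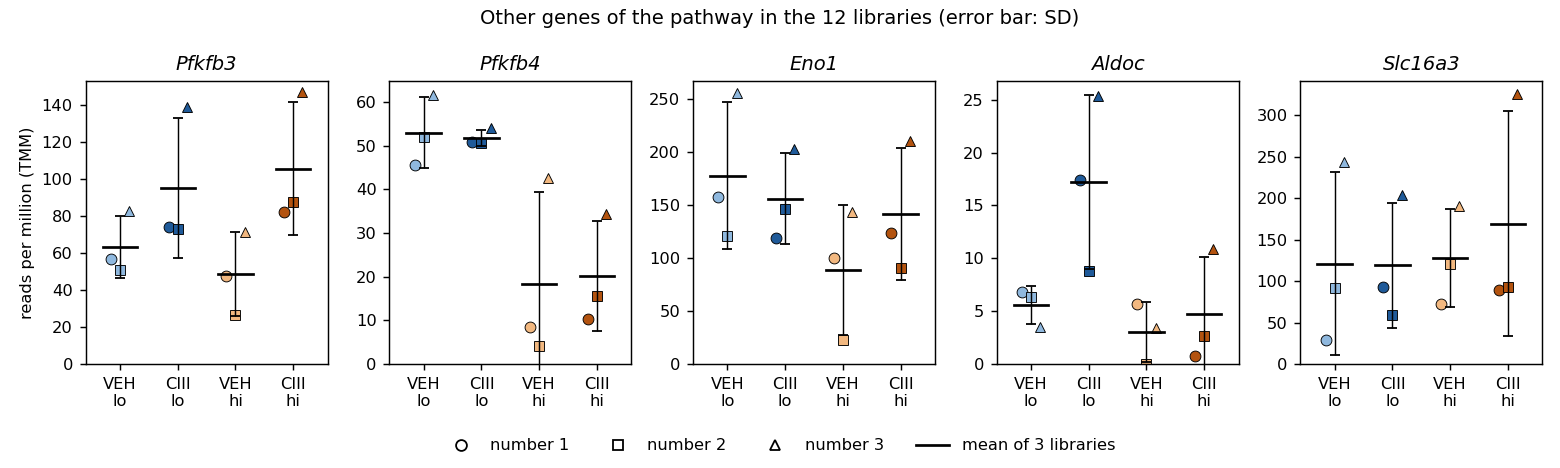
Levels of 5 further genes of the pathway in RPM (y axis) in VEH and CIII libraries of F4/80lo and F4/80hi Mϕ (x axis). Symbols are the libraries, lines the means and error bars the SD, cut at 0. All F4/80lo libraries of Pfkfb4 lie above all F4/80hi libraries, where the highest are the libraries numbered 3 at 42.6 and 34.4.

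Among the neighbouring metabolic lists, the citric acid cycle held 21 tested genes. With CIII in F4/80hi Mϕ 5 were positive and 16 negative (median -0.27 beside 0.05 over all genes), and the groups of 5 did not overlap, 1 higher and 4 lower, beside 10.5% of all genes in either direction. The 11 reference genes had the same median there, -0.27, with 8 negative, and the ribosomal protein share was lower too, as given for Gapdh. Markers of the sort and of monocyte-derived Mϕ lay the other way: 6 of 7 genes of the sort were positive (median 0.85), all 6 in every pair of same-numbered libraries, and 5 of 7 tested monocyte-derived markers (median 0.62). Resident Mϕ markers lay the same way as the cycle by count, with 2 of 10 positive and 8 negative (median -0.36). Their summed level lay the other way, at 22814, 23652 and 2504.7 RPM with VEH against 30153, 26006 and 12145 with CIII. Fn1 made up most of it, with means of 11770 and 19146 RPM. Mertk was at 174, 246 and 187 normalised counts with VEH against 325, 386 and 315 with CIII, without overlap (0.77). The monocyte-derived marker Itgb7 (1.26) did not overlap either, while H2-Ab1 (1.98) and the monocyte-derived marker Cx3cr1 (1.71) overlapped. None of these markers passed the test. The part of these genes and shares was not tested. The 5 genes of the cycle without overlap included Sdhc, a subunit of succinate dehydrogenase (-1.09), and Mdh2, the mitochondrial malate dehydrogenase (-0.91), neither past limma's test (adjusted p = 0.992 for both). In the same comparison the groups did not overlap for 2 of 12 genes of pyruvate entry, the carrier Mpc1 (-1.01) and the kinase Pdk3 (-0.96), for 1 of 7 pentose phosphate genes, Pgls (-0.81), and for 2 of 12 HIF targets, Higd1a (-1.38) and Mif (-1.07). They did not overlap either for 2 of 8 genes of gluconeogenesis and glycogen, Ugp2 (-0.56) and Pck2 (1.20), and for 1 of 11 reference genes, Ppia (-0.67). These counts of a few genes per list stand beside the same 10.5% of all genes, and none of the genes passed the test. Of 8 tested HIF factors and oxygen sensors 7 were positive in each subpopulation, with medians of 0.30 (F4/80lo) and 0.46 (F4/80hi), and none had groups without overlap. Over all genes 4918 of 10718 (median -0.05) and 5620 of 10499 (median 0.05) were positive. None of the 8 had an unadjusted p under 0.05 by limma.

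Between the subpopulations the block on library numbers brought 5 genes of these lists past the test, beside 4.32% of all genes under the same block. They were 1 of 7 pentose phosphate genes, 2 of 8 of gluconeogenesis and glycogen and 2 of 21 of the citric acid cycle, all lower in F4/80lo Mϕ and named after their values were seen, and 0 of 12 genes of pyruvate entry, 8 HIF factors and 13 HIF targets. They were the glycogen enzymes Pygl (-1.04, adjusted p = 0.00317 by limma with the block) and Gbe1 (-1.06, 0.0348), the dehydrogenases Idh1 (-1.16, 0.00962) and Mdh1 (-0.97, 0.00797), and Taldo1 of the pentose phosphate pathway (-0.61, 0.0464). Without the block their adjusted p-values lay between 0.286 and 0.553. Resident Mϕ markers moved with them, with 10 of 10 lower in F4/80lo Mϕ (median -1.91). The sum of 7 dendritic cell markers was 7.66 to 236 RPM in the F4/80lo libraries against 1.30 to 20.9 in the F4/80hi libraries, although the gating first set aside cells positive for CD11c and MHCII as dendritic cells. Cd209a, also listed as a monocyte-derived marker, gave 73.9 RPM of the mean sum of 124 with VEH and 43.3 of 114 with CIII in F4/80lo Mϕ. The part of resident and dendritic cell markers in these differences was not tested.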

How the data were processed

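Total RNA of sorted peritoneal Mϕ was sequenced with the QuantSeq 3′ kit with molecular identifiers. Per the study's methods, the authors trimmed reads with Bbduk, aligned them with STAR to GRCm38, collapsed identifiers, counted with HTSeq-count and used DESeq2. The scaling was read from the values, whose factors per library equalled DESeq2's size factors within each subpopulation's table to 0.000443% or better and differed from those over both tables by 2.6% to 6.22%. The deposited values are thus a normalised signal and no raw counts. In every library 100% of values were whole multiples of 1 read (tolerance 0.05 reads), so whole reads were recovered. Of 47643 identifiers 47224 had a GENCODE symbol. The 10 genes and all gene lists were chosen with earlier results of these data known.

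CIII was compared with VEH on log2(normalised count + 1) by limma 3.58.1 with a trended prior (R 4.3.3), over genes with a mean of at least 3. F4/80lo was compared with F4/80hi on log2(RPM + 1) with RPM computed here from recovered reads with TMM scaling, over all 12 libraries, and so was the difference between responses on normalised counts. P-values were adjusted over all genes tested (Benjamini-Hochberg, threshold 0.05), and intervals are at 95%. Differences are on these log2 scales and understate changes of low genes. Alternatives included edgeR 4.0.16 and DESeq2 1.42.0 on recovered reads. The main fits were tested on simulated data, for CIII with the depths of the F4/80lo libraries. So were the block, edgeR and DESeq2 for CIII, and edgeR between subpopulations. The simulated counts held no effect of the library number. The other alternatives, among them the block between subpopulations, were not simulated. Same-numbered libraries deviated together (correlation over genes 0.121 to 0.504 in F4/80lo, 0.216 to 0.639 in F4/80hi, and 0.263 to 0.691 between subpopulations), so the numbers were taken to pair libraries. Between treatments, however, number 1 with VEH correlated more with number 2 than with number 1 of CIII (0.171 against 0.121 in F4/80lo and 0.285 against 0.216 in F4/80hi), and number 3 stood apart most. This pairing comes from the data and the labels' numbers, which name no shared mouse.

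Loci matching the last 300 bases of each gene's transcripts were found with BLAST 2.17.0 (at least 70 bases and 95% identity). Named genes were the 10 genes, the genes of the sort, 8 fixed pathway genes, per list the genes past the test or up to 2 whose groups did not overlap, and the 5 most like the 10 genes. Marker lists are given as counts and summed levels. B cell, T and NK cell, eosinophil and mast cell, mesothelial and erythroid markers summed to at most 179, 35.8, 15.2, 2.24 and 1718 RPM, the last in VEH F4/80hi number 3. The floor of 3 reads covers counting error only.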

Additional observations from a re-analysis of the deposited data

Results flagged for a closer look

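Pgk1 was singled out because its response to CIII had opposite directions in the 2 subpopulations, with each CIII library below its same-numbered VEH library in F4/80lo Mϕ and above it in F4/80hi Mϕ. Of all genes 28.8% moved one way in every pair in F4/80lo Mϕ and 33.8% in F4/80hi Mϕ. The share with opposite directions was not computed. In F4/80hi Mϕ the Pgk1 pair numbered 3 differed by only 0.04, on 2 reads with VEH and 4 with CIII. The difference between both responses was -2.25 on the log2 scale (SE 1.20; interval -4.82 to 0.32) and did not pass limma's test over all genes (adjusted p = 0.999, and 0.898 with the library number as a block). Without the libraries numbered 3 it was -3.28 (SE 1.66), and over the alternatives it ran from -3.28 to -1.10. The gene rests on 58 reads over 12 libraries.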

How the results depend on the processing

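Alternatives numbered 18 for CIII in each subpopulation, 24 between subpopulations and 17 for the difference between responses. Of 1560 values of single genes 1462 kept their direction and side of the threshold, 86 turned and 12 newly passed, and 53 of 81 results never turned. The cause of the changes below was not tested.

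Calls for CIII in F4/80lo Mϕ went from 0 to 2 with library weights, 4 with edgeR and the replicate block, 2 with DESeq2 and 12 without the libraries numbered 3. Calls between subpopulations went from 2 to 10 with a pseudocount of 5, 0 with no filter, 463 with the replicate block, 4 without TMM, 6 on the deposited scale, 140 with DESeq2, 0 in VEH libraries alone and 330 without the libraries numbered 3. Leaving out 1 library gave 0 to 142, with 142 without VEH F4/80hi number 3, 39 without VEH F4/80lo number 3 and 9 without CIII F4/80hi number 3. Beyond the calls given in the report, the pairing brought the sort genes Ptprc, Itgam, H2-Aa and H2-Eb1 past the test between subpopulations, with 8 of 10 resident, 3 of 8 monocyte-derived, 4 of 4 tested dendritic cell and 1 of 3 B cell markers (Cd209a is in 2 of these lists). It changed no call of the 10 genes.

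In F4/80lo Mϕ library weights turned Pfkl to 0.57, Pgam1 to 0.89, Pkm to 0.058 and Tpi1 to 0.083. Aldoa turned to -0.041 with quantile normalization, -0.046 with edgeR, -0.0040 with edgeR and the block and -0.025 with DESeq2. Pgam1 was 0.25 with quantile normalization and 0.22 without number 3, and Slc16a3 -0.021 with edgeR. In F4/80hi Mϕ Pfkl was 0.050 with equal totals and Slc16a3 -0.086 without number 3. Between subpopulations Hk2 was 0.024 and Hk3 -0.21 without number 3. CIII libraries alone gave Hk3 -0.16, Gapdh 0.16 and Pfkfb3 -0.18, and VEH libraries alone Pgk1 0.81 and Hk1 0.22. Without TMM Hk1 was 0.068 and Tpi1 0.032. On the deposited scale Pkm was 0.0094, Hk1 0.11 and Tpi1 0.069, and Tpi1 was 0.12 with edgeR and 0.088 with DESeq2.

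Leaving out 1 library in F4/80lo Mϕ with CIII gave -0.35 to 1.01 for Slc2a1, -0.012 to 1.29 for Hk2, -0.19 to 0.79 for Hk3, -0.39 to 0.44 for Pfkl, -0.25 to 0.20 for Aldoa, -0.80 to 0.46 for Pgam1, -0.41 to 0.043 for Pkm, -0.094 to 0.39 for Hk1, -0.065 to 0.42 for Pfkp, -1.01 to 0.059 for Tpi1, -0.37 to 0.12 for Eno1 and -0.48 to 1.00 for Slc16a3. Leaving out 1 library in F4/80hi Mϕ with CIII gave -0.19 to 0.078 for the median of the 10 genes, -0.15 to 0.61 for Slc2a1, -0.12 to 1.43 for Hk2, -0.54 to 0.31 for Pfkl, -0.38 to 0.18 for Aldoa, -1.38 to 0.20 for Pgam1, -0.57 to 0.087 for Gpi1, -0.13 to 0.82 for Pfkp and -0.42 to 0.52 for Slc16a3. Leaving out 1 library between subpopulations gave -0.57 to 0.28 for Hk2, -0.23 to 0.37 for Hk3, -0.20 to 0.051 for Pkm, -0.13 to 0.20 for Hk1, -0.052 to 0.33 for Pfkfb3 and -0.30 to 0.24 for Tpi1.

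Depth limits Pgk1 and Pgam1, and 3 libraries a group limit all genes.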
